A study of Mus musculus with 4 samples.

Results

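Lysosome genes and the genes of the vacuolar proton pump were followed in mouse blood colonies grown with and without induction of the leukaemia fusion MLL-ENL. The set was taken by symbol from the table of 14323 genes: 40 genes from a fixed list of lysosomal hydrolases, lumenal cofactors, membrane proteins and their transcription factors, and 18 genes whose symbol starts with Atp6v. All 58 were present, and 57 had a mean of at least 1 normalized count and were tested among 11370 genes. The exception was the pump gene Atp6v1g3, which had 2, 0, 1 and 1 reads.

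ST-HSCs (short-term haematopoietic stem cells) and MPP2 cells (a class of multipotent progenitors) came from C57BL/6 mice of a conditional MLL-ENL model. Per culture, 100 cells were grown for 5 to 7 days in 1 ml of 1% methylcellulose with SCF at 25 ng/ml and IL-6, IL-3 and GM-CSF at 10 ng/ml each. They received either 0.05 µM 4OHT (4-hydroxytamoxifen), which induces the fusion, or ethanol, the vehicle. Each of the 4 combinations is 1 library, made from the RNA of all colony cells, and the labels name neither the Cre driver nor the number or age of mice. The 4OHT libraries therefore differ from ethanol by drug and fusion together, with no 4OHT control lacking the fusion among them, and no value for the fusion transcript itself was analysed here. The libraries are always listed below with those from ST-HSCs before those from MPP2 cells and, within each, ethanol before 4OHT. Ratios are 4OHT over ethanol, also with ST-HSC cultures before MPP2 cultures.

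Lysosomes are acidic compartments in which hydrolases break down proteins, sugars, lipids and nucleic acids taken up from outside or delivered by autophagy. The vacuolar proton pump acidifies them: its V1 sector splits ATP in the cytosol, and its V0 sector carries protons through the membrane. TFEB, TFE3 and MITF are transcription factors of 1 family that bind an E-box within the so-called CLEAR element of many lysosomal promoters. In blood, macrophages and osteoclasts are known for high lysosomal activity, and mast cells and granulocytes store related proteases in granules.

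The sequence these factors recognise was searched in the promoters of the set. Because it is known from lysosomal promoters, a high share among these genes is no independent result. RefSeq windows (build GRCm38.p6, 250 bases before to 50 after each gene's start) were matched by symbol for 46 of the 58 genes. The 8-base core TCACGTGA, which reads the same on both strands and contains the E-box CACGTG, lay in the windows of 7 of these 46 genes (15.2%) and of 204 of 8694 tested genes with a window (2.35%). Counted over windows, it was in 7 of 57 (12.3%) for these genes, in 1.93% of those of tested genes and in 0.974% of all 32851. CACGTG alone was in 15 of 46 genes (32.6%) against 12.1% of the tested genes. The sites of 3 hydrolases, 1 membrane channel and 3 pump subunits are shown 5′ to 3′ on the gene's strand, with the core in capitals.
Ctsa, first site: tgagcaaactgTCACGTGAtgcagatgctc
Ctsa, next site: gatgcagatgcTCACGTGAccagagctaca
Ctsd: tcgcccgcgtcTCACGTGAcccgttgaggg
Gla, first site: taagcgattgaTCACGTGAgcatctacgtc
Gla, next site: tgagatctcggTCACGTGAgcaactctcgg
Mcoln1: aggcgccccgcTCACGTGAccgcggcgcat
Atp6v0d1: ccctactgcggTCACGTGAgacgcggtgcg
Atp6v0e: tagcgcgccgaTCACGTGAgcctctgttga
Atp6v1a: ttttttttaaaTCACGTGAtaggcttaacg

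The Ctsa sites lie at chr2:164833749-164833778 and chr2:164833766-164833795 on the plus strand, with the core 13 bases before the start and at transcript base 5. The Ctsd site (chr7:142387908-142387937, minus strand) has its core 99 bases before the start, and the Gla sites (chrX:134601215-134601244 and chrX:134601182-134601211, minus strand) have it 228 and 195 bases before. That of Mcoln1 (chr8:3500462-3500491, plus strand) begins 46 bases before the start. In the pump genes the core begins 4 bases before the start in Atp6v0d1 (chr8:105566050-105566079, minus strand), at transcript base 3 in Atp6v0e (chr17:26676387-26676416, plus strand) and 132 bases before in Atp6v1a (chr16:44139373-44139402, minus strand). These matches describe the letters only.

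Library depth ranged from 12907412 to 14317891 reads, and 1 read was worth 0.0695 to 0.0802 normalized counts. The ribosomal precursor Rn45s took 4.82% to 7.39% of reads. The colony cells held abundant neutrophil RNA: the summed level of 10 neutrophil markers was 25401, 17849, 41891 and 40686 normalized counts. The 8 stem cell markers summed to 130.7, 199.0, 153.0 and 165.7. Their 6 tested members had median log2 differences with 4OHT of 0.66 in ST-HSC cultures, where 3 of 6 were at least 2-fold higher (2.1% of all genes were), and 0.13 in MPP2 cultures. Ly6a stood at 27.8, 61.4, 24.7 and 32.0, and Cd34 at 12.0, 27.0, 24.7 and 20.9. Hlf was the 1 marker at least 1.5-fold lower in ST-HSC cultures (2.89% of all genes were), at 9.39, 6.04, 8.15 and 9.15. Kit, at 76.4 to 92.9, was nearer level. The part of stem cell content in the lysosomal differences was not tested. Mecom had 1 to 6 reads, and Slamf1, a surface marker of MPP2 cells, had 0 reads in both ST-HSC libraries against 44 and 31 in the MPP2 libraries. In such bulk RNA, fewer cells of a type and less RNA per cell cannot be told apart.

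With 4OHT, lysosome and pump genes as a set took a larger share of the RNA in both cell types, and proteases had the largest median difference of the roles with more than 1 gene. The summed level of all 58 genes was 0.953%, 1.20%, 1.31% and 1.51% of each library. The median log2 difference of 4OHT minus ethanol over the 57 tested genes was 0.23 in ST-HSC and 0.20 in MPP2 cultures, against -0.0037 and -0.0024 over all tested genes. By class, hydrolases had medians of 0.29 and 0.25, membrane proteins 0.23 and 0.09, and the proton pump 0.11 and 0.13.

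A 4OHT value above the ethanol value in both cell types was found for 41 of the 57 genes, where 30.4% of all tested genes had this. Only 4 were below ethanol in both (31.4% of all), and 12 had opposite signs (38.1%). The 4 were Lamp2, Asah1, Atp6v1d and Atp6v1g1. With the trend over GC content removed, 44 were above ethanol in both (29.4% of all) and 4 below in both. Lamp2, Asah1 and Atp6v1d were then above ethanol, and of the 4 named only Atp6v1g1 stayed below.

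At 1.5-fold or more, 9 genes were higher with 4OHT in ST-HSC cultures (5.28% of all tested genes were) and 0 were lower (2.89%). In MPP2 cultures 3 were higher (4.67%) and 0 lower (6.09%). At 2-fold, 4 were higher (2.1%) and 0 lower (0.545%) in ST-HSC cultures, and 0 were higher (1.32%) or lower (1.7%) in MPP2 cultures. Folds were counted on log2 values after adding 0.5, so Atp6v0c-ps2, with a plain ratio of 2.01 in ST-HSC cultures, was just short of 2-fold. With 1 library per combination these pairs carry no test, and the 95% intervals given with each ratio cover counting error only.

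An effect of 4OHT common to both cell types can be tested, on 1 residual degree of freedom. That residual is how far the responses of the cell types differ, not a spread of replicates. With limma, 0 of the 57 genes passed an adjusted p of 0.05 in either direction. The background was equally sparse, at 0.044% of genes higher and 0.0088% lower. At an unadjusted p under 0.05, 16 of the genes were higher and 0 lower, beside 7.02% and 7.19% of all genes. Other tools called more on the same libraries: limma with a mean-variance trend called 11 higher (2.96% of all genes), edgeR on the recovered reads 8 (2.47%) and DESeq2 7 (1.03%). Each called 0 lower, where 2.3%, 1.86% and 0.361% of all genes were. The 5 called by all 3 were Ctsb, Ctsl, Ctsz, Lgmn and Atp6v0c-ps2.

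**Figure D1:**
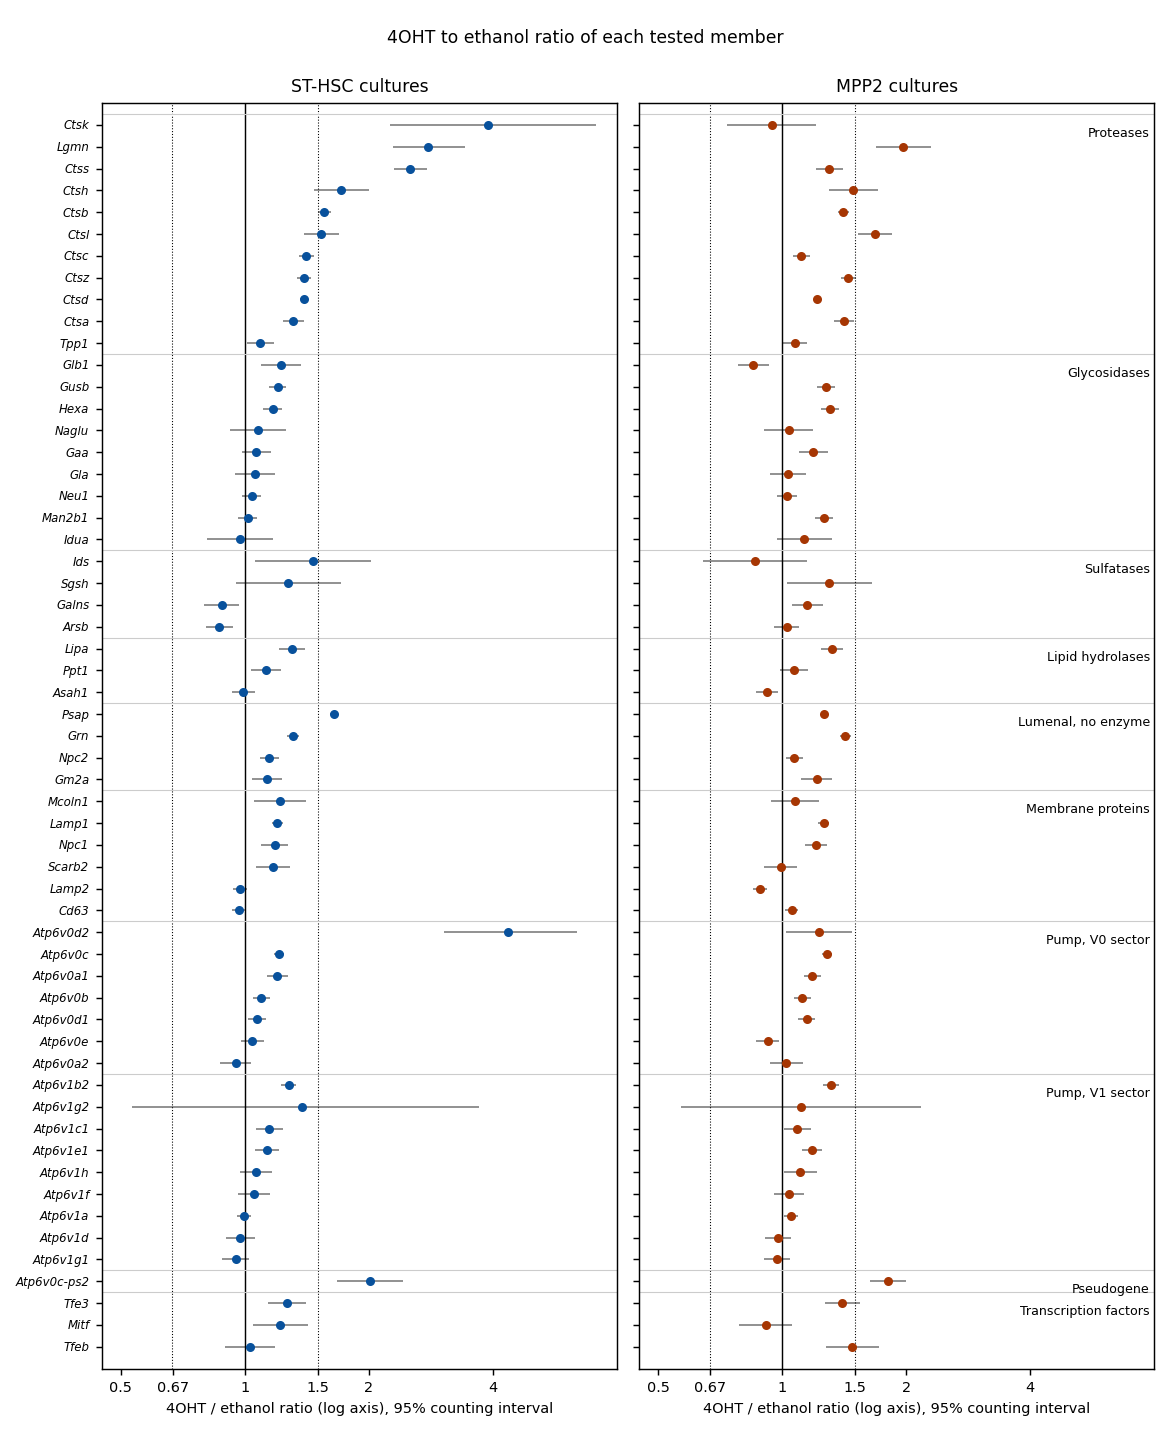
Ratio of 4OHT to ethanol for each of the 57 tested genes in ST-HSC (left) and MPP2 cultures (right), on a log axis, grouped by role. Points are ratios of 2 libraries, bars are 95% counting intervals, and dotted lines mark 1.5-fold; in ST-HSC cultures 9 genes lie at or beyond the upper line, 6 of them proteases, and in MPP2 cultures 3 do.

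The proteases comprise the cathepsins, legumain (Lgmn) and tripeptidyl peptidase 1 (Tpp1). All 11 were above ethanol in ST-HSC and 10 of 11 in MPP2 cultures, with median log2 differences of 0.61 and 0.49. Their summed share of the library was 0.241%, 0.350%, 0.380% and 0.463%.

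Lgmn, an asparagine-specific endopeptidase that also processes cathepsins, stood at 9.53, 26.5, 18.9 and 37.2 normalized counts. The 4OHT library was the higher in each cell type, by 2.78-fold (2.28 to 3.41) in ST-HSC and 1.97-fold (1.69 to 2.3) in MPP2 cultures. Its shared log2 difference was 1.19 (SE 0.16), with limma's adjusted p = 0.0921 and a range of 0.000368 to 0.245 over the alternative settings. Lgmn lies at chr12:102394084-102439813 (GRCm38, minus strand).

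The collagen-degrading cathepsin K (Ctsk) and the antigen-processing cathepsin S (Ctss) lie near each other on chromosome 3 (chr3:95499256-95509362 and chr3:95526786-95556403, both on the plus strand). Ctss stood at 43.7, 110.0, 94.2 and 122.6, so the ST-HSC ethanol library was the low one. Its ratios were 2.52 (2.29 to 2.77) and 1.3 (1.21 to 1.4). Ctsk stood at 1.18, 4.60, 10.5 and 9.87, from 17, 64, 145 and 123 reads. Here too ST-HSC ethanol was lowest, and the MPP2 libraries differed by less than counting error: the ratios were 3.89 (2.25 to 7.09) and 0.943 (0.736 to 1.21). limma's adjusted p for the shared effect was 0.247 for Ctss and 0.475 for Ctsk.

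Cathepsins B, H, L and Z had ratios between 1.39 and 1.71 in both cell types. Ctsb, an abundant endopeptidase and exopeptidase, stood at 369.7, 576.3, 576.2 and 811.0, with ratios of 1.56 (1.51 to 1.61) and 1.41 (1.37 to 1.45). The aminopeptidase Ctsh stood at 18.9, 32.3, 26.2 and 39.0, with ratios of 1.71 and 1.49. For Ctsb and Ctsh the MPP2 4OHT library was the highest of the 4.

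Ctsl, an endopeptidase, stood at 48.8, 74.7, 50.6 and 84.9, and its ethanol libraries were nearly level. Its ratios were 1.53 (1.39 to 1.69) and 1.68 (1.52 to 1.85), the latter among the 3 of 1.5-fold or more in MPP2 cultures. The carboxypeptidase Ctsz stood at 346.9, 482.6, 279.7 and 404.4, highest in the ST-HSC 4OHT library, and both 4OHT values were above both ethanol values. The shared log2 differences were 0.57 (SE 0.13) for Ctsb, 0.68 (SE 0.13) for Ctsl and 0.50 (SE 0.13) for Ctsz, with limma's adjusted p of 0.183, 0.133 and 0.203.

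Cathepsin D (Ctsd), the aspartic protease, had the highest level per length of all 58 genes as a mean over the 4 libraries, and in each library except ST-HSC ethanol, where Atp6v0c was above it. It stood at 1060, 1473, 2184 and 2656 normalized counts, and both MPP2 libraries were above both ST-HSC libraries. The 4OHT ratios were 1.39 (1.36 to 1.42) and 1.22 (1.2 to 1.24). A share of 33.2% of its 31-base words is also in the annotated gene Gm49369, so the split of reads between them is uncertain. The remaining proteases, Ctsa, Ctsc and Tpp1, had ratios of 1.31, 1.41 and 1.09 in ST-HSC and of 1.41, 1.11 and 1.08 in MPP2 cultures.

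Enzymes that act on sugars and sulfates had no ratio of 1.5 or more in either cell type. The 9 glycosidases had ratios of 0.974 to 1.22 with ST-HSCs and 0.85 to 1.3 with MPP2 cells, and 7 were above ethanol in both. The highest per length were Hexa (the alpha subunit of beta-hexosaminidase) at 192.6, 224.6, 202.5 and 264.1, Gusb (beta-glucuronidase) at 239.5, 287.4, 199.4 and 254.7, and Neu1 (a sialidase) at 187.7, 194.7, 190.7 and 196.3. Hexa and Gusb were higher in value with 4OHT in each cell type. Neu1 was level, with both of its intervals including 1 (0.983 to 1.09 and 0.974 to 1.09).

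Glb1, the lysosomal beta-galactosidase used as a marker of senescent cells, stood at 41.2, 50.4, 87.5 and 74.4. Its ratios were 1.22 (1.1 to 1.37) and 0.85 (0.78 to 0.927), so the directions were opposite and neither interval included 1. The difference between the cell types could not be tested.

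The 4 sulfatases, which remove sulfate from glycosaminoglycans, had medians of 0.07 and 0.12 on the log2 scale, and 3 of them had opposite signs in the cell types. Galns stood at 64.3, 56.4, 72.9 and 83.8, with ratios of 0.878 (0.797 to 0.967) and 1.15 (1.05 to 1.26). Arsb stood at 105.1, 91.1, 116.1 and 119.1, with ratios of 0.867 (0.804 to 0.934) and 1.03 (0.956 to 1.1). Galns and Arsb were the 2 genes of the set whose ST-HSC interval lay wholly below 1. The low-abundance sulfatases were Ids, with ratios of 1.46 (1.06 to 2.02) and 0.861 (0.642 to 1.15), and Sgsh, with 1.27 (0.949 to 1.71) and 1.3 (1.03 to 1.65).

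Among the 3 lipid hydrolases, the acid lipase Lipa, which frees cholesterol from its esters, stood at 89.9, 117.1, 136.8 and 181.2. Its ratios were 1.3 (1.21 to 1.4) and 1.32 (1.25 to 1.41). The acid ceramidase Asah1 stood at 135.7, 134.3, 161.8 and 148.5, with ratios of 0.99 and 0.918. Ppt1, which removes fatty acids from proteins, stood at 74.0, 83.1, 97.6 and 104.4. Of the 3, Lipa was the one with 4OHT values above ethanol by more than counting error in both cell types.

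Lumenal proteins that are not enzymes were all above ethanol in both cell types. Prosaposin (Psap), the precursor of the saposins that present lipids to hydrolases, stood at 819.5, 1349, 1845 and 2336. Both MPP2 libraries were above both ST-HSC libraries, and 4OHT was the higher in each cell type, by 1.65-fold (1.61 to 1.69) and 1.27-fold (1.24 to 1.29). Progranulin (Grn), which binds prosaposin and is cut into granulins, stood at 448.5, 585.3, 571.0 and 813.2, with ratios of 1.31 and 1.42. Npc2, a cholesterol carrier, stood at 194.6, 223.0, 254.9 and 273.0, and the GM2 activator Gm2a had ratios of 1.13 and 1.21. limma's adjusted p for the shared effect was 0.244 for Psap and 0.245 for Grn.

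Membrane proteins had no member at 1.5-fold in either cell type. Lamp1, a heavily glycosylated protein of the lysosome's wall, stood at 509.4, 610.5, 569.0 and 717.5, with ratios of 1.2 and 1.26. Its relative Lamp2, which also serves chaperone-mediated autophagy, stood at 369.1, 358.5, 407.3 and 359.6, with ratios of 0.971 (0.934 to 1.01) and 0.883 (0.849 to 0.918). Thus Lamp1 was higher and Lamp2 lower in value with 4OHT in each cell type, but with the GC trend removed Lamp2 was higher as well (log2 0.11 and 0.20). Cd63, a tetraspanin of late endosomes and secretory granules, stood at 380.7, 368.2, 450.0 and 474.9.

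The cholesterol exporter Npc1 stood at 87.5, 103.3, 141.5 and 170.6, with ratios of 1.18 (1.09 to 1.27) and 1.21 (1.13 to 1.28). The calcium channel Mcoln1 and Scarb2, the receptor that carries glucocerebrosidase to the lysosome, had ratios of 1.22 and 1.17 in ST-HSC cultures. In MPP2 cultures these were 1.07 and 0.992, with intervals that included 1.

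By median log2 difference, the proton pump (0.11 and 0.13) moved less than the hydrolases as a class, among which proteases had 0.61 and 0.49. The other hydrolase roles were near the pump. Glycosidases had 0.09 and 0.18, sulfatases 0.07 and 0.12, and lipid hydrolases 0.17 and 0.10. Of the pump's 16 tested genes, 11 were above ethanol in both cell types, 2 below in both and 3 had opposite signs. The pump's summed share was 0.254%, 0.289%, 0.292% and 0.321% of the library. The V0 sector had median log2 differences of 0.13 and 0.20, and V1 of 0.09 and 0.12. A single pump gene reached 1.5-fold, Atp6v0d2.

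In V0, the proton-carrying ring subunit gene Atp6v0c was the most abundant per length, at 608.1, 734.6, 680.9 and 874.1 normalized counts. Its ratios were 1.21 (1.17 to 1.24) and 1.28 (1.25 to 1.32). Atp6v0b, another ring subunit, stood at 231.5, 253.3, 245.0 and 274.0, and Atp6v0d1, the common form of subunit d, at 201.7, 215.7, 230.3 and 264.1. In these 3 genes 4OHT was the higher value in each cell type, except that Atp6v0b in MPP2 cultures was level (log2 -0.02) with the GC trend removed. Atp6v0e stood at 127.0, 132.2, 148.9 and 137.5, without a common direction.

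Atp6v0d2, the form of subunit d known from osteoclasts and macrophages (chr4:19876841-19922605, minus strand), stood at 2.64, 11.5, 16.0 and 19.7, from 38, 160, 222 and 245 reads. The ST-HSC ethanol library was far below the other 3. The ratio was 4.35 (3.04 to 6.37) in ST-HSC, the largest of the 57 genes there, and 1.23 (1.02 to 1.48) in MPP2 cultures. The shared log2 difference was 1.11 (SE 0.39), with limma's adjusted p = 0.312 and a range of 0.0301 to 0.413 over the alternative settings.

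Per transcript length, Atp6v0d2 made up 0.833% (exact interval 0.590 to 1.14) of subunit d in ST-HSC ethanol. The shares were 3.31% (2.82 to 3.86), 4.27% (3.73 to 4.87) and 4.56% (4.01 to 5.16) in the other libraries, while Atp6v0d1 supplied 95.4% to 99.2%. For subunit a, the share of Atp6v0a1 was 31.9%, 34.0%, 42.2% and 39.8%, that of Atp6v0a2 12.7%, 10.7%, 9.62% and 7.85%, and that of Tcirg1 55.5%, 55.3%, 48.2% and 52.4%. Atp6v0a1 was thus higher in share in the MPP2 libraries and Atp6v0a2 lower. Tcirg1, a form of subunit a known for its role in osteoclasts, supplied the largest share in each library.

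**Figure D2:**
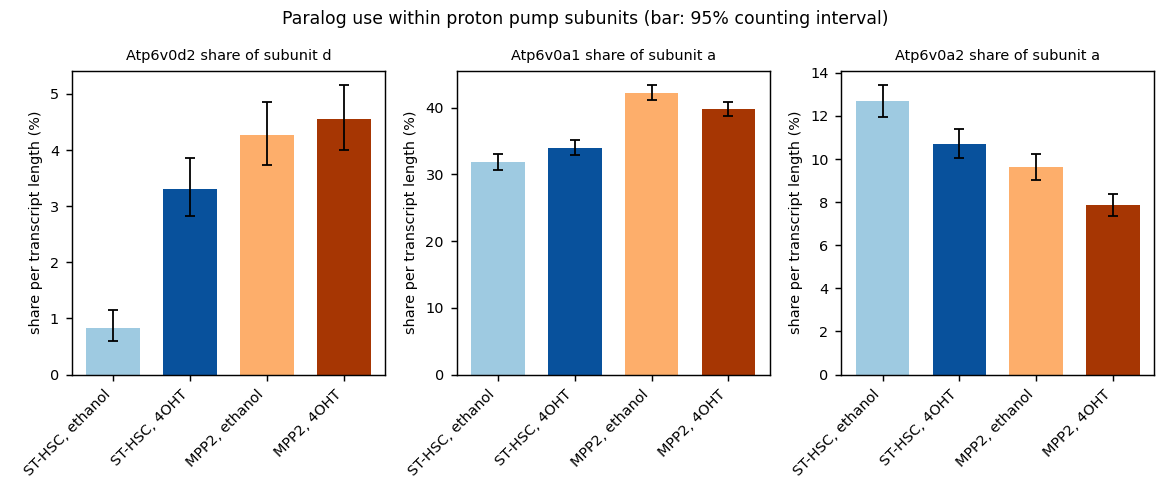
Share of Atp6v0d2 among subunit d transcripts and of Atp6v0a1 and Atp6v0a2 among subunit a transcripts, per transcript length, in the 4 libraries (bars start at 0; whiskers are exact 95% counting intervals). Atp6v0d2 was 0.833% in ST-HSC ethanol and 3.31% to 4.56% in the others.

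In V1, the highest per length were Atp6v1e1 (a peripheral stalk subunit) at 119.9, 135.5, 164.2 and 194.1, Atp6v1f at 69.5, 73.2, 83.8 and 86.9, and Atp6v1b2 at 263.6, 336.7, 252.9 and 332.1. This order is that of the mean over the libraries: in MPP2 ethanol, Atp6v1g1 (99.7 per kilobase) was above Atp6v1b2 (89.5). Atp6v1b2, a subunit of the ATP-splitting head, had the highest V1 ratios whose intervals excluded 1: 1.28 (1.22 to 1.33) and 1.31 (1.26 to 1.37). Its partner in the head, the catalytic subunit Atp6v1a, stood at 344.8, 343.5, 367.5 and 385.8, with ratios of 0.996 (0.957 to 1.04) and 1.05 (1.01 to 1.09). The head's B subunit was therefore higher in value with 4OHT in each cell type while the A subunit was nearly level. With the GC trend removed, the MPP2 log2 differences were closer, at 0.32 for Atp6v1b2 and 0.23 for Atp6v1a, against 0.35 and 0.03 in ST-HSC cultures. Atp6v1g1 supplied 98.9% to 99.5% of subunit G per length. Atp6v1f and Atp6v1g1 share 18.4% and 24.0% of their 31-base words with other annotated genes.

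The pseudogene Atp6v0c-ps2 (chr6:37806086-37806550, plus strand) is 1 of the 18 Atp6v symbols and was kept apart. It stood at 12.6, 25.3, 44.4 and 80.2, with ratios of 2.01 (1.68 to 2.42) and 1.8 (1.63 to 2.0). Since 95.6% of its 31-base words occur in other genes, 92.9% in Atp6v0c, its values are uncertain. Without it, the medians of the remaining 56 genes were 0.22 and 0.19.

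The transcription factors were expressed at 22.5 to 74.5 normalized counts. Tfe3 stood at 46.2, 58.4, 53.3 and 74.5, with ratios of 1.26 (1.14 to 1.4) and 1.4 (1.27 to 1.54). Tfeb stood at 28.4, 29.2, 23.3 and 34.5, with ratios of 1.03 (0.894 to 1.18) and 1.48 (1.28 to 1.72). Mitf stood at 22.5, 27.4, 29.7 and 27.0, with ratios of 1.22 (1.05 to 1.42) and 0.912 (0.787 to 1.06). Only Tfe3 was above ethanol in both cell types by more than counting error. Their activity depends largely on phosphorylation and location in the cell, which RNA levels do not measure.

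Beside the promoter sites, the 7 genes with TCACGTGA had ratios of 0.996 to 1.39 with ST-HSCs and 0.924 to 1.41 with MPP2 cells. The highest were those of Ctsd (1.39) and Ctsa (1.41), and the lowest those of Atp6v1a and Atp6v0e. Of the 9 genes at 1.5-fold in ST-HSC cultures, Ctsb, Ctsh, Atp6v0c-ps2 and Atp6v0d2 had no window. None of the others was among the 7, where 15.2% of the 46 genes with a window were. With so few genes that absence is not informative. Ctsl and Lgmn had CACGTG in their windows, beside 32.6% of the 46.

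**Figure D3:**
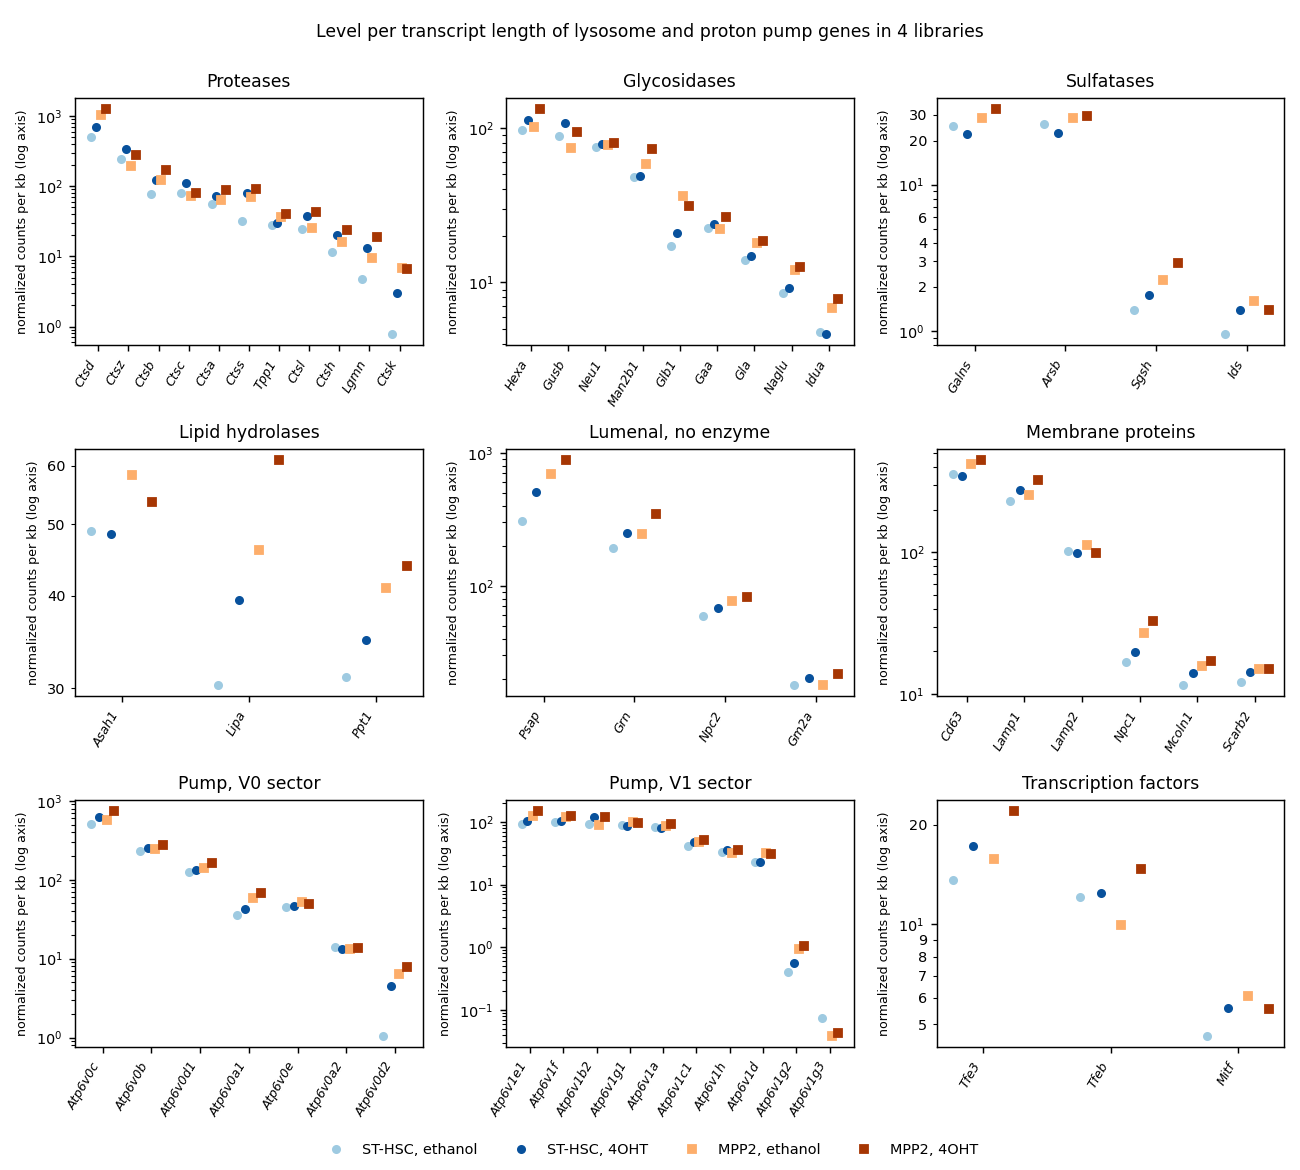
Normalized counts per kilobase of transcript (log axis) for the 57 protein-coding genes by role, with 1 point per library (circles, ST-HSC; squares, MPP2; pale, ethanol; dark, 4OHT); values of 0 are not drawn. Ctsd, Atp6v0c and Psap are the highest by the mean over libraries, and Ctsk, Lgmn and Atp6v0d2 show a low ST-HSC ethanol point.

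The libraries of the MPP2 cultures held more lysosomal RNA than those of ST-HSC cultures under either treatment. Over both treatments, 50 of the 57 genes were higher in value in MPP2 (47.6% of all tested genes were), with a median log2 difference of 0.30 against -0.024 for all tested genes. limma called 12 of them higher in MPP2 (9.88% of all genes were) and 0 lower (5.31%). Of the 12, 7 were hydrolases (Ctsd, Ctsk, Lgmn, Glb1, Idua, Sgsh and Lipa), 2 pump subunits (Atp6v0a1 and Atp6v1g2), and the others Psap, Npc1 and the pseudogene.

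This count depends on the fit. It was 1 without a filter on low genes, 1 after removing the trend with GC content, and 4 with a constant of 0.1, where the main constant is 0.5. It was 25 with limma's trend and 26 with edgeR, where 16.7% and 16.5% of all genes were called higher, and 14 with DESeq2 (8.74%). Called lower were 1 with limma's trend (16.4%), 0 with edgeR (14%) and 0 with DESeq2 (3.98%).

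Ctsd and Psap, the most abundant of the 12, were higher in MPP2 under both treatments. The MPP2 to ST-HSC ratio of Ctsd was 2.06 (2.02 to 2.1) in ethanol and 1.8 (1.77 to 1.84) with 4OHT. That of Psap was 2.25 (2.2 to 2.3) and 1.73 (1.7 to 1.76). Their log2 differences were 0.95 (SE 0.13, adjusted p = 0.0214) and 0.98 (SE 0.15, adjusted p = 0.0257) in limma.

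Npc1, Lipa and Atp6v0a1 had MPP2 to ST-HSC ratios that lay within each other's interval under both treatments. Npc1 was 1.62-fold and 1.65-fold higher (limma log2 0.71, SE 0.13, adjusted p = 0.0324), Lipa 1.52-fold and 1.55-fold (0.62, SE 0.13, adjusted p = 0.041), and Atp6v0a1 1.64-fold and 1.62-fold (0.70, SE 0.13, adjusted p = 0.0327). The sulfatase Sgsh also kept its ratio, at 1.61 and 1.65. Its limma adjusted p was 0.0362, and that of Idua, an enzyme that also degrades glycosaminoglycans, was 0.0447. Atp6v1g2, the G subunit form known from neurons, rests on 9, 12, 20 and 20 reads, and its limma adjusted p of 0.0348 ranged from 0.0378 to 0.616 over the alternative settings.

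For some other genes the gap was wider in ethanol than with 4OHT, and for some it was wider with 4OHT. Ctsk was 8.85-fold (5.34 to 15.6) higher in MPP2 in ethanol and 2.15-fold (1.57 to 2.95) with 4OHT. For Atp6v0d2 the ratios were 6.06 (4.28 to 8.79) and 1.71 (1.39 to 2.1), for Ctss 2.16 (1.96 to 2.38) and 1.11 (1.04 to 1.2), and for Glb1 2.12 (1.92 to 2.34) and 1.47 (1.33 to 1.63). In each of these 4 the ratio of each treatment lay outside the other's interval. In the other direction, the glycosidase Man2b1 was 1.21-fold (1.15 to 1.28) higher in MPP2 in ethanol and 1.51-fold (1.43 to 1.59) with 4OHT. For Galns the ratios were 1.13 (1.04 to 1.24) and 1.49 (1.35 to 1.63). Here too each ratio lay outside the other's interval. Over both treatments Ctsk had a log2 difference of 1.86 (SE 0.40, adjusted p = 0.0439 in limma), whereas Atp6v0d2, at 1.57 (SE 0.39), had an adjusted p of 0.0573.

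Ctsc, Ctsz and Gusb were the members lowest in MPP2 relative to ST-HSC. Their log2 differences were -0.31, -0.28 and -0.22, with limma's adjusted p of 0.187, 0.173 and 0.265. Ctsc, which activates the serine proteases of granules, was called lower by limma with trend.

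**Figure D4:**
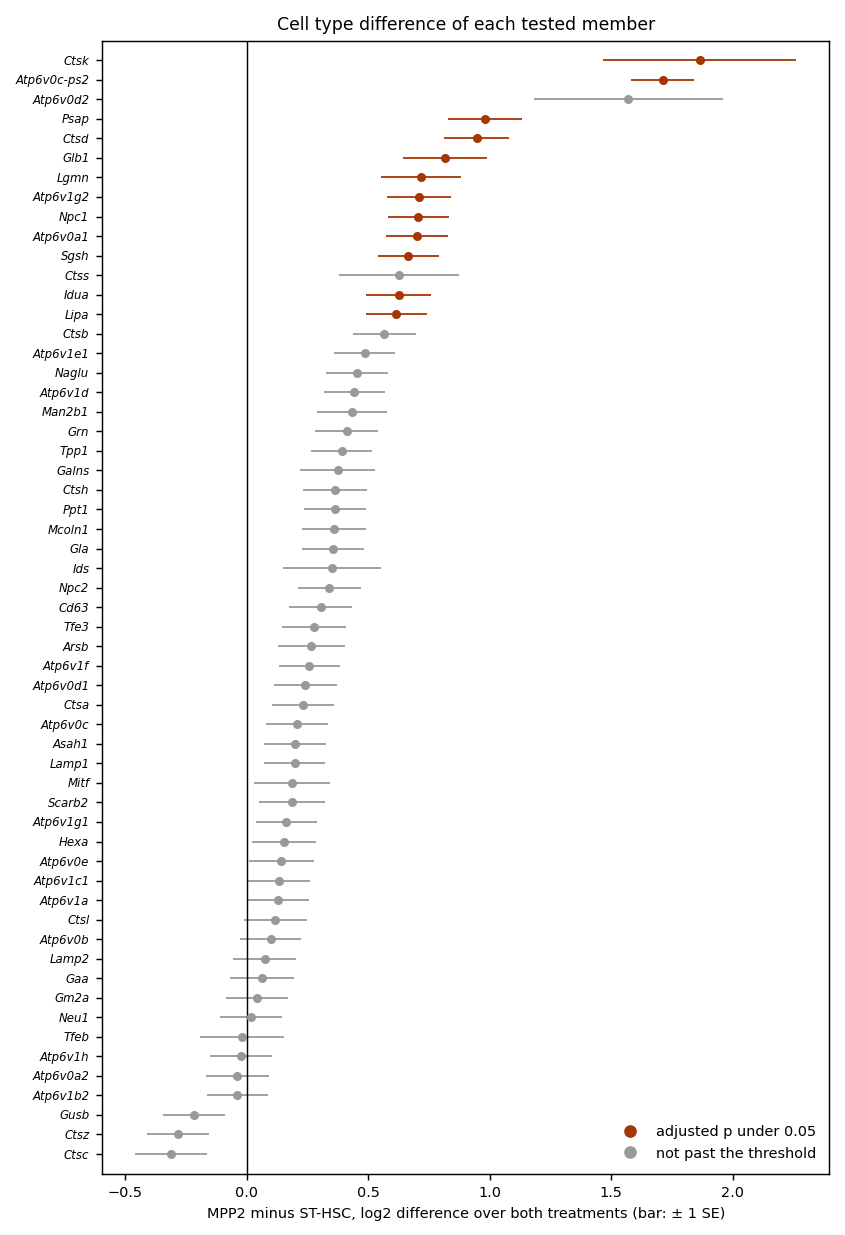
Difference between MPP2 and ST-HSC libraries over both treatments (log2, additive model) for each of the 57 tested genes, sorted; bars are 1 SE. The 12 coloured genes passed an adjusted p of 0.05, and 50 of 57 points lie above 0.

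Markers of mature cells differed between the libraries along with these genes. Of 14 macrophage markers 12 were in the table and 9 were tested, with a summed level of 259.7, 451.6, 315.0 and 518.7. Csf1r, the macrophage growth factor receptor, stood at 67.0, 129.6, 54.2 and 128.3, and the mannose receptor Mrc1 at 30.0, 83.3, 32.6 and 99.2. The sum and both receptors were higher in value with 4OHT in each cell type, the direction of the proteases. The complement genes C1qb and C1qc, which mark resident macrophages, had 0 to 9 reads, and both were at 0 in MPP2 ethanol. The part of macrophage content in the protease ratios was not tested.

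The 7 osteoclast markers in the table, of 8, summed to 89.6, 99.2, 122.6 and 156.4, and Nfatc1, at 81.3, 84.2, 92.1 and 109.8, supplied most of it. Dcstamp, a protein of cell fusion, had 39, 88, 21 and 63 reads, and Tnfrsf11a, the receptor for the osteoclast factor RANKL, had 8, 40, 18 and 29. Both were higher in value with 4OHT in each cell type, and 2 of the 5 tested markers were higher at an unadjusted p under 0.05 in limma (7.02% of all genes were). Mmp9, which is also on the neutrophil list, stood at 2.92, 1.94, 23.3 and 35.2. The osteoclast enzyme Acp5 stood at 1.95, 3.09, 4.04 and 3.21, so with 4OHT it was higher in value in ST-HSC and lower in MPP2 cultures. Oscar and Ocstamp had 1 to 9 reads. The part of these cells in the levels of Ctsk and Atp6v0d2 was not tested.

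Between the cell types, the 11 mast cell and basophil markers summed to 139.3, 74.2, 1600.3 and 515.8, so they were higher in MPP2 and lower with 4OHT. limma called 10 of the 10 tested ones higher in MPP2 (9.88% of all genes were), and 1 of them, the granzyme Gzmb, fell with 4OHT (log2 -2.30, limma adjusted p = 0.0477; 0.0088% of all genes were called lower). Ms4a2, a chain of the IgE receptor, stood at 7.44, 2.80, 41.0 and 9.87. The 7 megakaryocyte markers (20.9, 26.4, 332.0 and 352.6) and the 10 neutrophil markers were also higher in MPP2, where 7 of 7 and 7 of 10 were called, against 9.88% of all genes. Among megakaryocyte markers Vwf stood at 10.7, 18.2, 97.8 and 153.7 and Pf4 at 1.67, 1.51, 98.9 and 71.3, and among neutrophil markers Mmp8 stood at 92.9, 143.8, 132.4 and 162.9 and Camp at 449.6, 240.4, 723.0 and 747.9. Eosinophil markers summed to 33.9, 31.5, 210.0 and 105.5, and erythroid markers to 0.765, 1.08, 142.0 and 10.3. The eosinophil granule genes Epx and Prg2 stood at 94.9 and 97.7 in MPP2 ethanol and at 8.05 to 11.1 in the ST-HSC libraries. The globin genes Hba-a1 and Hbb-b1 stood at 46.0 and 41.2 in MPP2 ethanol, and at 0 to 3 reads in the ST-HSC libraries. Whether these lineages account for the MPP2 levels of lysosomal genes was not tested.

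Other genes of the pathway gave a similar picture for lumenal and membrane proteins and a flatter one for the machinery around them. limma called 0 of the 134 tested genes of these 6 lists for the shared 4OHT effect, while edgeR called 8 higher and 1 lower. Over all genes limma called 0.044% higher and 0.0088% lower, and edgeR 2.47% and 1.86%. Further hydrolases (27 tested of 30) had median log2 differences of 0.17 and 0.23, and further membrane proteins (28) had 0.18 and 0.20. The lists for delivery of enzymes (25 tested of 26; 0.06 and 0.16) and for control of TFEB by nutrient signalling (20; 0.09 and 0.11) were closer to 0. The autophagy list had -0.01 and 0.05. Of its 20 symbols, Vps34 is an older name of Pik3c3, so all 19 of its genes were tested. Accessory and assembly proteins of the pump (15, with Tcirg1 among them) had -0.0014 and -0.07.

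Gpnmb, a glycoprotein of lysosomes and melanosomes, stood at 64.7, 293.3, 243.2 and 731.2. Its ratios were 4.53 (4.22 to 4.87) and 3.01 (2.89 to 3.13), with limma's adjusted p = 0.0779 for the shared effect. The metal transporter Slc11a1 stood at 4.38, 10.3, 27.9 and 50.1. Lysozyme (Lyz2) stood at 1113, 1924, 1692 and 2768, and the lipid amidase Naaa at 27.6, 53.5, 29.9 and 41.5. All 4 were higher with 4OHT in each cell type by more than counting error.

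Among autophagy genes, the cargo receptor Optn stood at 14.5, 9.27, 26.6 and 28.4, with ratios of 0.638 (0.508 to 0.798) and 1.07 (0.922 to 1.24). Atg16l1, which directs the lipid tagging of LC3, stood at 22.9, 27.2, 33.1 and 40.3, with ratios of 1.19 and 1.22.

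In delivery, Igf2r, a receptor for mannose 6-phosphate on enzymes, stood at 9.81, 16.0, 16.1 and 34.7, while Gnptg, a subunit of the enzyme that makes this tag, stood at 13.1, 9.92, 13.7 and 10.8. The receptor was thus higher and the tagging subunit lower in value with 4OHT in each cell type. Flcn, which keeps TFEB and TFE3 out of the nucleus when nutrients are plentiful, stood at 48.6, 60.2, 68.5 and 90.4. Tfec, the fourth member of the MITF family, stood at 159.7, 202.4, 85.7 and 106.6 and was lower in MPP2 (log2 -0.91, limma adjusted p = 0.0209).

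Of the pump's accessory proteins, Atp6ap1 had ratios of 1.29 (1.22 to 1.36) and 1.24 (1.18 to 1.31) and Rnasek of 1.2 and 1.33. Atp6ap2, also known as the prorenin receptor, was nearly level at 1.02 and 0.95. Tcirg1, a form of subunit a, was in this list and not among the pump genes, as its symbol does not start with Atp6v. Its ratios were 1.12 (1.06 to 1.18) and 1.36 (1.3 to 1.43). The medians and sums of the pump and of its V0 sector leave it out.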

How the data were processed

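Total RNA of colony cells was sequenced in 4 libraries, 1 per combination of cell type and treatment. RNA was extracted with TRI Reagent LS and RNeasy columns, and 200 ng went into MGIEasy rRNA depletion and directional libraries, per the labels' protocols. Trimmomatic 0.36, Bowtie2, RSEM, edgeR and build mm10 were used, per the submitters' processing notes. The sources used here name neither their order nor an annotation. The deposited signal is a table of normalized counts, 1 column per library. All values (100%) are whole multiples of the value of 1 read within 1e-06, so whole counts were recovered and are called reads here. Which tool made them is not stated, and counts from RSEM would be rounded estimates. The counting intervals do not cover how reads were split between genes that share sequence. No gene in the table has fewer than 4 reads in all.

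Members and gene lists were chosen with earlier results of these data known. Tested genes had a mean of at least 1, and limma 3.58.1 (R 4.3.3) was fitted on log2(normalized count + 0.5) with cell type and treatment as additive terms (3 coefficients, 4 libraries, 1 residual degree of freedom). p-values were adjusted by Benjamini-Hochberg over 11370 genes at 0.05, two-sided. The added constant understates log2 differences of low genes, while ratios are of normalized counts without it. Ratios of 2 libraries have exact conditional binomial 95% intervals from the reads. Subunit shares have exact Clopper-Pearson intervals. Intervals cover counting error only, since molecules carry no identifiers. Nothing says how cultures were replicated. The residual is the disagreement between the cell types in their 4OHT difference, with its variance in limma partly shared over genes. The p-values therefore measure no spread between replicates, and that disagreement may be biological or technical.

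Alternatives were added constants of 0.1 and 1, no filter, a mean of at least 5, median-ratio scaling, removal of the GC trend in 20 bins, limma with trend, edgeR 4.0.16 and DESeq2 1.42.0 on the recovered reads, and 2-fold in place of 1.5-fold. Gene positions, transcript lengths (protein-coding, best-supported, then longest), GC content and shared 31-base words came from GENCODE M21 on GRCm38, the assembly of mm10, and all 58 genes matched. Promoter windows came from RefSeq.

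All members could be named. Values in all 4 libraries were to be given for members at 1.5-fold in either cell type, called by the shared test, or among the 3 highest per length of their role. From each other list, named genes were those called for the shared 4OHT effect and the 2 with the largest shared difference at a mean of at least 10, plus Tcirg1, Atp6ap1 and Atp6ap2. The markers C1qb, C1qc, Kit, Hlf, Mecom, Slamf1, Acp5, Oscar, Ocstamp, Dcstamp and Tnfrsf11a are outside this rule. They were chosen after their values were seen. The lists were accessory pump proteins, other hydrolases, other membrane proteins, delivery, TFEB control and autophagy, with markers of macrophages, mast cells and basophils, neutrophils, eosinophils, erythroid cells, megakaryocytes, stem cells and osteoclasts. Fits were tried before use on simulated reads with the same 4OHT fold in both cell types and no cell type difference. That setting does not cover responses that differ between the cell types.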

Additional observations from a re-analysis of the deposited data

Results flagged for a closer look

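Glb1, lysosomal beta-galactosidase, and Galns, a sulfatase, moved in opposite directions with 4OHT in the 2 cell types, each by more than counting error. The log2 difference of Glb1 was 0.52 larger in ST-HSC than in MPP2 cultures (ratios of 1.22 and 0.85). That of Galns was lower in ST-HSC cultures, with a difference between cell types of -0.387 (ratios of 0.878 and 1.15). With the GC trend removed, the log2 differences of Glb1 were 0.27 and -0.34, while those of Galns were -0.21 and 0.06, so the value of Galns in MPP2 cultures was then close to 0. Neither difference between cell types was tested, since 1 library per combination leaves no residual for it.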

How the results depend on the processing

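No paired analysis was possible because each combination has 1 library and the labels give no replicate numbers. The median 4OHT differences of hydrolases, membrane proteins and pump genes kept their sign under each alternative. Single members moved more: with the GC trend removed, the 4OHT difference of 34 of 57 members in MPP2 and 3 of 57 in ST-HSC cultures moved by more than counting error, such as Ctsd (0.10) and Ctsc (0.46) in MPP2. The 0 members called higher for the shared 4OHT effect became 1 with an added constant of 1, 4 at a mean of at least 5, 11 with limma's trend, 8 with edgeR and 7 with DESeq2. Members called higher in MPP2, 12 in the main analysis, were 4 with a constant of 0.1, 1 without a filter, 1 with the GC trend removed, 25 with limma's trend and 26 with edgeR, and limma's trend called 1 lower. With 2-fold in place of 1.5-fold, 4 members in place of 9 were higher in ST-HSC and 0 in place of 3 in MPP2 cultures. Removing the GC trend changed the sign of the shared 4OHT difference of 11 members, none past the test: Glb1 -0.0352, Lamp2 0.158, Naglu -0.0335, Asah1 0.0431, Neu1 -0.0600, Idua -0.0126, Galns -0.0749, Cd63 -0.0674, Atp6v0e 0.0688, Atp6v1d 0.126 and Atp6v1f -0.0189. For the cell type difference the signs of Tfeb (0.00338), Atp6v0a2 (0.00420), Atp6v1b2 (0.00372) and Atp6v1h (0.0117) changed with the GC trend removed, and those of Tfeb (0.0126) and Atp6v1h (0.00662) with DESeq2. The causes were not tested. Depth limits Atp6v1g2 (9 to 20 reads), for which both 4OHT intervals included 1. It also limits Atp6v1g3, for which no difference was detectable.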
